A study of Mus musculus with 19 samples.

Results

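The salt-inducible kinases Sik1, Sik2 and Sik3 and the CREB-regulated transcription coactivators Crtc1, Crtc2 and Crtc3 were taken from the RNA-seq data of mice with reduced Wiz, a zinc finger protein of the G9a/GLP histone methyltransferase complex. These 6 genes were matched by symbol to the 41388 Ensembl genes counted in each sample. The family was chosen by the lower Sik3 counts of the mutant cerebellum, so the genotype values of the members in cerebellum are given as a description without a test. All 6 passed the filter on low counts in every comparison. The 16 libraries were made from 6 groups, all of strain FVB: whole brains of male E13.5 embryos (13.5 days post coitum), 3 Wiz +/+ and 3 Wiz MommeD30/+; whole brains of female E13.5 embryos, 2 and 2; and cerebellums of adult males aged 56 days, 3 and 3. The MommeD30 allele came from an ENU (chemical mutagenesis) screen and was kept by crossing heterozygotes to Line3 mice, an FVB/NJ strain homozygous for a multicopy GFP transgene driven by the human alpha-globin promoter. Embryos came from crosses between heterozygotes. The study calls the samples of a group biological replicates.

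The 3 SIK proteins are serine/threonine kinases of the AMPK-related family. They are switched on by LKB1, encoded by Stk11, and held back when protein kinase A phosphorylates them in response to cAMP. Active SIK phosphorylates the CRTC coactivators and the class IIa histone deacetylases, which then bind 14-3-3 proteins and stay in the cytoplasm. When cAMP rises, or when calcineurin removes the phosphates, CRTC enters the nucleus and joins CREB at cAMP response elements of target genes. Crtc1 is the coactivator best known from neurons, Sik1 is itself a CREB target gene, and Sik3 is known for its part in sleep need in mice.

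The short form of the cAMP response element, TGACG, was searched on both strands (as CGTCA on the reverse) of the 300 bases from 250 before to 50 after the start of each gene. The RefSeq promoter table (GRCm38.p6) held 4 of the 6 members, Sik2, Sik3, Crtc1 and Crtc3. Sik1 and Crtc2 had no entry. The windows of Sik3 (chr9:46012570-46012869, plus strand) and Sik2 (chr9:51009024-51009323, minus strand) are shown because they held the motif, in capitals, written in the direction of the gene.
Sik3: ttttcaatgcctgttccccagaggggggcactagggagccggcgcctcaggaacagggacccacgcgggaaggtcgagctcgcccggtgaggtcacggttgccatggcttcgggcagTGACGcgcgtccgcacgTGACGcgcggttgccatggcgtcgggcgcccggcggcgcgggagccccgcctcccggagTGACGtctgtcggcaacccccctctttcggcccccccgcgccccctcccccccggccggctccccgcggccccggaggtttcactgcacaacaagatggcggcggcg
Sik2: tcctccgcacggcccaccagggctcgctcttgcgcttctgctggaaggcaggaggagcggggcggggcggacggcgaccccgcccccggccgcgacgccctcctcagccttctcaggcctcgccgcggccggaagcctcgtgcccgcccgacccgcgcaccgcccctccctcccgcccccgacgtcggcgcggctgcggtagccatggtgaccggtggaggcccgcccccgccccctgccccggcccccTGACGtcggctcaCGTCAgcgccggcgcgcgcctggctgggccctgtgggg
Sik3 had 3 matches, at -133, -116 and -57 with the first base of the transcript as 0, and Sik2 had 2, at -1 and 12. The windows of Crtc1 and Crtc3 had none, and the full palindrome TGACGTCA, which contains the short motif, was found in none of the 4. Of all 32817 promoters in the table, 20.8% held at least 1 short motif, 5.01% at least 2, 1.03% at least 3, and 1.79% the full palindrome. The 4 windows were 71.7% (Crtc1) to 80.0% (Sik2) G or C, and the motif contains CG. The shares of all promoters were not matched for base content, so they do not show that the matches are unusual for such windows. Among the CREB target genes listed here, 17 of 21 in the table (81.0%) held the short motif in at least 1 promoter. So did 5 of 6 protein kinase A subunits (83.3%), while the other pathway lists followed below ran from 25% to 60%. These list shares count genes, whereas the shares of all promoters count promoters, so they are not directly comparable.

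Total counts ran from 16386029 to 50459755, the lowest being that of male Wiz +/+ brain replicate 2. Wiz itself was lower in every Wiz MommeD30/+ library than in any Wiz +/+ library of the same tissue and sex. Its level was 104.9 ± 0.435 against 73.9 ± 0.794 CPM in cerebellum (SD, n = 3), and its log2 fold change was -0.50 (SE 0.032, adjusted p = 9.9e-08, edgeR quasi-likelihood test). CPM are read counts scaled to library size, here with TMM factors over all 16 libraries. The 7 cerebellum markers (such as Gabra6 and Pcp2) summed to between 6966 and 7537 CPM in the cerebellums and 124 to 147 CPM in the embryonic brains, and the 6 embryonic markers (such as Dcx and Nes) to between 44.5 and 60.3 against 2488 to 2871 CPM. Gabra6 was at 0 in every female embryonic brain.

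Sik3 (ENSMUSG00000034135, chr9:46012820-46224194 of GRCm38, plus strand, 9318 exonic bases) was lower in the Wiz MommeD30/+ cerebellum. The 3 Wiz +/+ cerebellums had 262, 257 and 274 CPM (7243, 6919 and 7674 reads), and the 3 Wiz MommeD30/+ cerebellums had 192, 202 and 218 CPM (4976, 5431 and 6094 reads). The groups did not overlap, and the highest mutant library lay below the lowest wildtype library. The means were 264 ± 8.98 and 204 ± 13.3 CPM (SD, n = 3). The log2 fold change was -0.37 (SE 0.038), or a fold of 0.774. That fold did not reach the lower limit of 0.7 that the study set, and 0.832% of the 15979 genes tested in cerebellum passed the study's limits (0.7 and 1.3) with an adjusted p of at most 0.05. Of all tested genes, 3.02% had a lower log2 fold change than Sik3. In whole tissue, fewer cells of a type and less RNA per cell cannot be told apart.

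**Figure D1:**
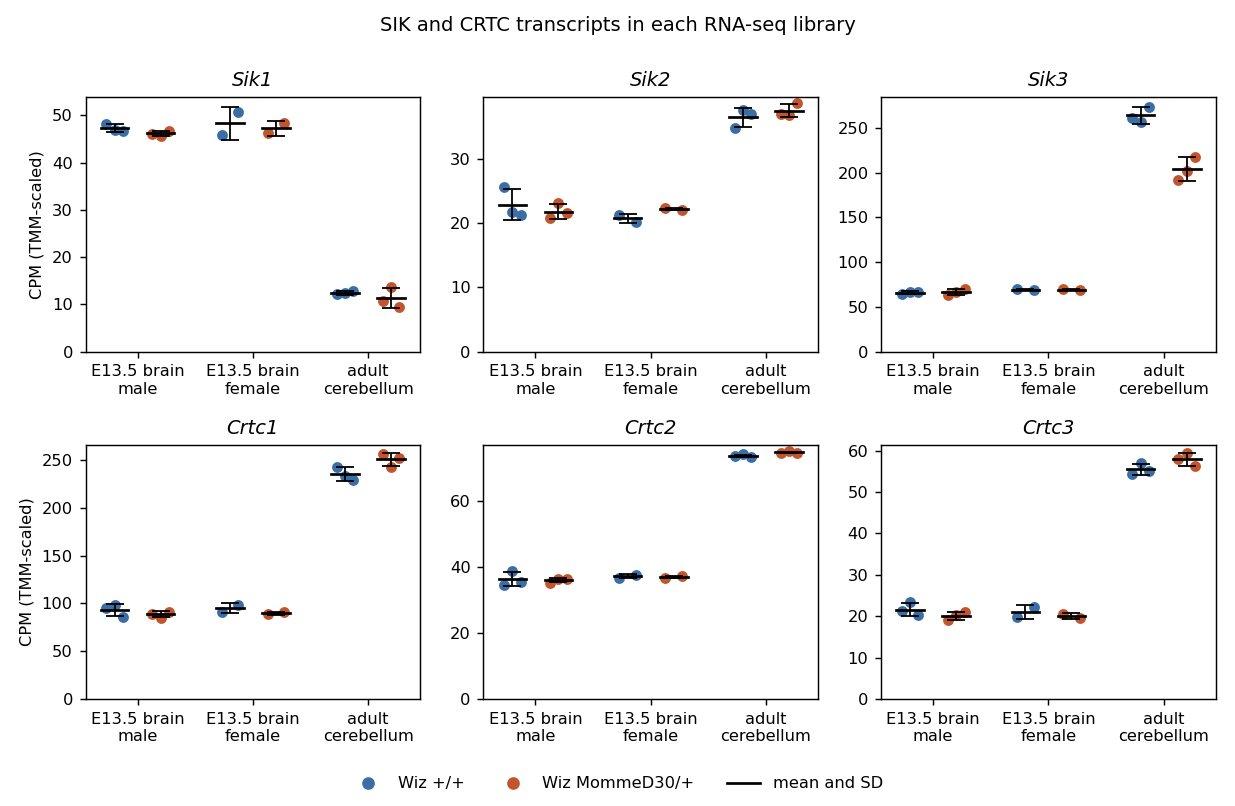
TMM-scaled CPM of each of the 6 genes (1 panel per gene, vertical axis from 0) in the 16 libraries, by tissue, sex and genotype; points are libraries, black bars the group mean and SD. Sik3 sits at 257 to 274 CPM in Wiz +/+ cerebellum, at 192 to 218 CPM in Wiz MommeD30/+ cerebellum and at 63.6 to 69.8 CPM in the embryonic brains of both genotypes.

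None of the other 5 members was as far from 0 as Sik3 in the same comparison. Sik1 (ENSMUSG00000024042) had 12.1, 12.3 and 12.8 CPM in Wiz +/+ cerebellum and 10.8, 13.7 and 9.51 CPM in Wiz MommeD30/+ cerebellum. The mutant libraries spread to both sides of the wildtype ones, and the log2 fold change was -0.13 (SE 0.101). Sik2 (ENSMUSG00000037112) was at 34.8 to 37.7 and 36.9 to 38.7 CPM, with overlapping groups and a log2 fold change of 0.04 (SE 0.046). Its exons share 1429 bases with Ppp2r1b on the opposite strand, and the library kit does not mark strand, so reads of the 2 genes cannot be told apart there. Ppp2r1b, a subunit of protein phosphatase 2A, had a log2 fold change of 0.04 (SE 0.043).

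The 3 coactivators had slightly higher means in the mutant cerebellum. Crtc1 (ENSMUSG00000003575) had 243.1, 234 and 229 CPM in Wiz +/+ libraries and 256, 243.2 and 252 CPM in Wiz MommeD30/+ libraries, a log2 fold change of 0.09 (SE 0.031). These groups did not overlap, but the highest wildtype and lowest mutant values, 243.1 and 243.2 CPM, were nearly equal. Crtc2 (ENSMUSG00000027936) did not overlap either, at 73.1 to 73.9 against 74.3 to 74.8 CPM, with a log2 fold change of 0.02 (SE 0.033). Crtc3 (ENSMUSG00000030527) was at 54.3 to 56.9 and 56.2 to 59.3 CPM, with a log2 fold change of 0.06 (SE 0.039). The groups of 3 members (Sik3, Crtc1 and Crtc2) thus did not overlap in cerebellum, as did not those of 24% of all genes tested. Only Sik3, 1 of the 6, had an adjusted p of at most 0.05, which 5.25% of all tested genes had, and nothing is read from this count because Sik3 chose the family.

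In the E13.5 brain, where the choice of genes used no values, Sik3 did not differ between genotypes beyond its error. Male Wiz +/+ brains had 63.9, 67.1 and 66.4 CPM and male Wiz MommeD30/+ brains 63.6, 67.1 and 69.8 CPM. Female brains had 69.8 and 68.9 CPM in Wiz +/+ and 69.5 and 68.7 CPM in Wiz MommeD30/+. The groups overlapped in both sexes. The log2 fold change was 0.03 in males (95% interval -0.07 to 0.12, adjusted p = 0.907, edgeR) and -0.01 in females (-0.12 to 0.11, adjusted p = 0.991, edgeR). Over the 10 brains with sex as a covariate it was 0.01 (-0.05 to 0.08, adjusted p = 0.898, edgeR), so that a fall of the size seen in cerebellum lay outside the interval.

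None of the 6 members was called in male, female or pooled E13.5 brains by edgeR or DESeq2, and none had an unadjusted p under 0.05. The share of all tested genes called was 0.196% in males, 0.111% in females and 0.485% in both sexes together. The largest pooled log2 fold changes were those of Crtc3, at -0.08 (95% interval -0.19 to 0.03, adjusted p = 0.566, edgeR), and Crtc1, at -0.08 (-0.16 to 0.01, adjusted p = 0.449, edgeR). Sik1 was at -0.03 (-0.10 to 0.04), Sik2 at -0.01 (-0.13 to 0.12) and Crtc2 at -0.01 (-0.08 to 0.07). These intervals include 0 but also small changes of either sign. The groups did not overlap for Sik1 in males, at 46.8 to 48.2 against 45.7 to 46.7 CPM, and for Sik2 and Crtc1 in females, with 2 libraries each, while 12.4% of all genes tested in males and 36% of those in females did not overlap. The genotype by sex term was called for no gene by edgeR (0% of 17620 genes; 701 had an unadjusted p under 0.05, and DESeq2 called 1), and its largest value among the members was 0.18 for Sik2 (SE 0.113, adjusted p = 0.985, edgeR).

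**Figure D2:**
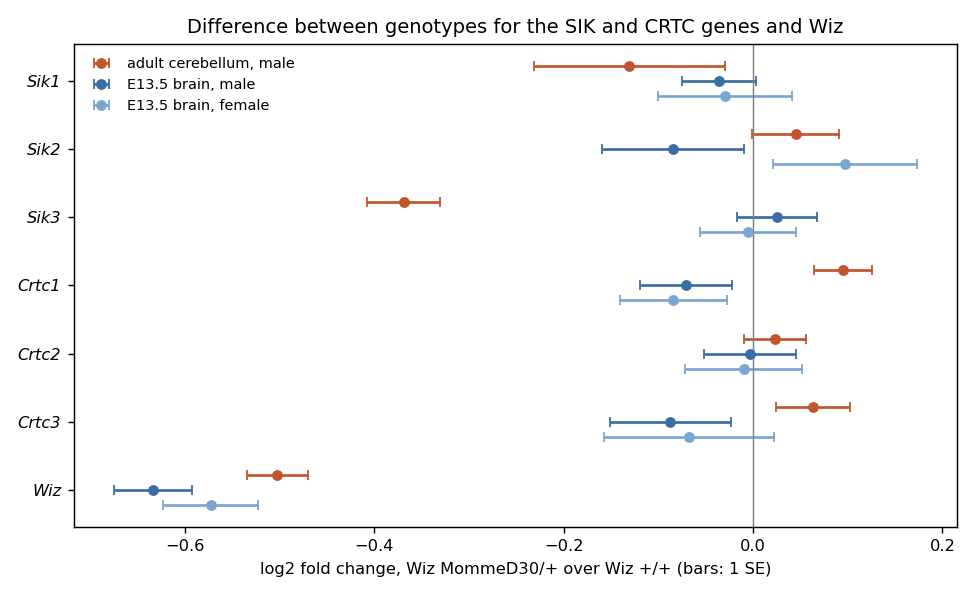
Log2 fold change between genotypes (horizontal axis; points with bars of 1 SE) of the 6 genes and Wiz in adult cerebellum, male E13.5 brain and female E13.5 brain, each from its own edgeR fit. Wiz is at -0.63 to -0.50 in the 3 comparisons, and Sik3 is at -0.37 in cerebellum and at 0.03 and -0.01 in the embryonic brains.

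The difference between the genotype changes of adult cerebellum and male E13.5 brain was fitted as a genotype by tissue term, and is given without a test for the members because it holds the cerebellum values that chose them. It was -0.40 (SE 0.062) for Sik3. The coactivators had terms of 0.16 (SE 0.059) for Crtc1, 0.02 (SE 0.053) for Crtc2 and 0.15 (SE 0.070) for Crtc3, while Sik1 was at -0.10 (SE 0.111) and Sik2 at 0.13 (SE 0.095). Of 17337 genes, 0.26% were called on this term.

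The levels of both families differed between the tissues. In Wiz +/+ males, 5 members were higher in adult cerebellum than in E13.5 brain and Sik1 was lower. Sik3 was at 264 ± 8.98 against 65.8 ± 1.67 CPM (SD, n = 3), with a log2 difference of 2.01 (SE 0.040, adjusted p = 6.78e-16, edgeR). Sik1 went the other way, from 47.3 ± 0.778 CPM in embryonic brain to 12.4 ± 0.332 CPM in cerebellum, a log2 difference of -1.93 (SE 0.054, adjusted p = 3.13e-14, edgeR). No cerebellum value overlapped an embryonic value for any of the 6 genes, and 87.3% of all genes tested did not overlap. The other log2 differences were 0.65 for Sik2, 1.34 for Crtc1, 1.03 for Crtc2 and 1.38 for Crtc3, all with an adjusted p of at most 4.84e-07 (edgeR). Ppp2r1b, which shares 1429 exonic bases with Sik2, went the other way (log2 difference -0.81, SE 0.044). Its part in the Sik2 counts was not tested, and this limit also holds for the Sik2 levels per kb and shares below.

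All 6 were therefore called, but so were 86.5% of the 16840 genes tested, 42.9% higher and 43.6% lower in cerebellum. Age, tissue and the set of samples sequenced cannot be told apart in this comparison. In Wiz MommeD30/+ males the log2 differences were 1.62 for Sik3, -2.02 for Sik1 and 0.79 to 1.53 for the other 4, in the same directions.

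Set per kb of exon, so that genes could be ranked against each other, Wiz +/+ cerebellum had Sik3 first at 28.3 ± 0.963 CPM per kb (SD, n = 3), then Crtc1 at 21.04 ± 0.641, Crtc2 at 17.9 ± 0.0982, Crtc3 at 5.63 ± 0.135, Sik2 at 3.83 ± 0.160 and Sik1 at 2.42 ± 0.0647. No neighbours in that order overlapped. In Wiz MommeD30/+ cerebellum the first 2 places were taken by Crtc1 at 22.4 ± 0.608 and Sik3 at 21.9 ± 1.42 CPM per kb, whose libraries overlapped. In male Wiz +/+ E13.5 brain Sik1 (9.22 ± 0.151), Crtc2 (8.85 ± 0.531) and Crtc1 (8.34 ± 0.569) led, each overlapping the next, followed by Sik3 at 7.06 ± 0.179, and Sik2 and Crtc3 shared the last places at 2.40 ± 0.248 and 2.19 ± 0.160 CPM per kb.

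Sik3 made up 81.9% ± 0.595 of the summed SIK level per kb in Wiz +/+ cerebellum (SD, n = 3) and 78.0% ± 1.57 in Wiz MommeD30/+ cerebellum. In male Wiz +/+ E13.5 brain it made up 37.8% ± 1.37, and Sik1 was the larger part with 49.3% ± 0.255. The summed SIK level was 34.6 ± 1.04 and 28.0 ± 1.38 CPM per kb in the cerebellums of the 2 genotypes and 18.7 ± 0.237 and 18.5 ± 0.431 CPM per kb in the male embryonic brains. Of these, only the cerebellum sums did not overlap between genotypes. Sik3, whose lower mutant counts chose the family, makes up most of those sums, so their separation largely follows from that choice. The CRTC family divided more alike in both tissues, although no member's share overlapped between them, with Crtc1 at 47.1% ± 0.837, Crtc2 at 40.2% ± 0.499 and Crtc3 at 12.6% ± 0.370 in Wiz +/+ cerebellum and 43.0% ± 1.33, 45.7% ± 1.39 and 11.3% ± 0.164 in male Wiz +/+ embryonic brain. Its sum was 44.6 ± 0.631 and 46.5 ± 0.467 CPM per kb in the cerebellums of the 2 genotypes and 19.4 ± 1.14 and 18.7 ± 0.395 CPM per kb in the male embryonic brains, where it overlapped, as it did not in cerebellum.

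**Figure D3:**
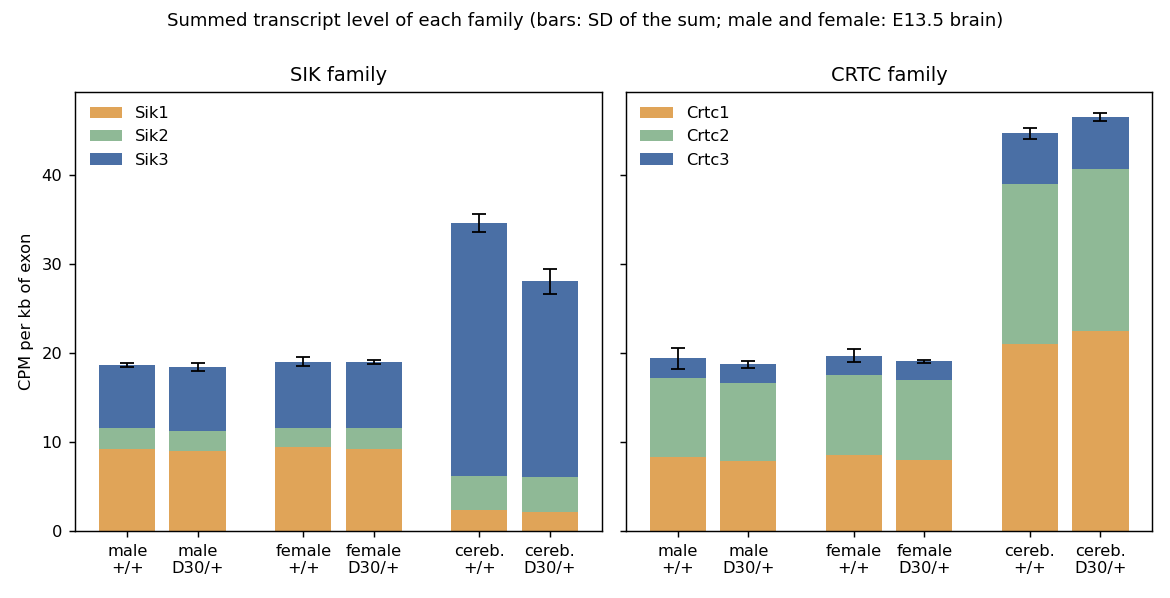
Stacked mean levels (CPM per kb of exon, vertical axis from 0) of the SIK genes (left) and CRTC genes (right) in the 6 groups; male and female mark E13.5 brain, cereb. the adult cerebellum, and black bars the SD of the sum over 2 or 3 libraries. The SIK sum is 34.6 in Wiz +/+ cerebellum and 28.0 in Wiz MommeD30/+ cerebellum, mostly Sik3, and 18.5 to 19.0 in the embryonic brains, where Sik1 is the larger part.

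The genes around Sik3 were compared because Pafah1b2, a subunit of platelet-activating factor acetylhydrolase, starts on the other strand with 129 bases between the 2 gene bodies, inside the promoter window printed above. In cerebellum Pafah1b2 had 265, 263 and 264 CPM in Wiz +/+ and 259, 264 and 257 CPM in Wiz MommeD30/+ libraries, so the groups overlapped. Its log2 fold change was -0.02 (95% interval -0.07 to 0.04, adjusted p = 0.743, edgeR). Of the 13 genes within 100 kb of Sik3, 6 could be tested in cerebellum and none was called, where 5.25% of all genes were. Their log2 fold changes ran from -0.14 for Tagln, an actin-binding protein of smooth muscle, to 0.01 for Zpr1. Near Sik2, 4 genes were tested, none was called, and the lowest adjusted p was 0.411 (edgeR).

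In the E13.5 brain 9 genes near Sik3 were tested in males and in both sexes together, and none was called. The share of all genes called was 0.196% in males and 0.485% in both sexes, so counts this small say little about the neighbours. The apolipoprotein genes downstream of Sik3 had the largest pooled differences, and all of them were low in these libraries. Their log2 fold changes were -0.82 (SE 0.372) for Apoa1, -1.72 (SE 0.658) for Apoc3 and -1.54 (SE 0.470, adjusted p = 0.219, edgeR) for Apoa5. Each had an unadjusted p under 0.05 (edgeR), as did 2073 of 17332 genes. In males the groups of Apoa5 did not overlap (log2 fold change -1.82, adjusted p = 0.172, edgeR), as did not those of 12.4% of all genes. Sik1 lies on chromosome 17, as Wiz does, with 498250 bases and 7 protein-coding genes between them. Sik2 and Sik3 are both on chromosome 9, 4668606 bases apart.

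**Figure D4:**
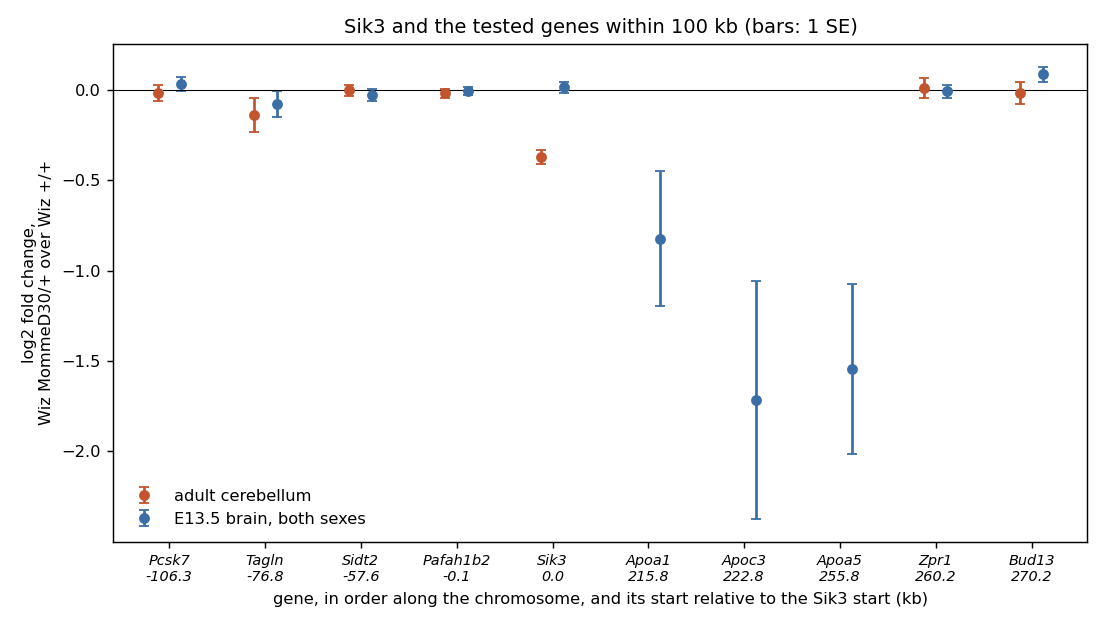
Log2 fold change between genotypes (vertical axis, bars of 1 SE) of Sik3 and the tested genes within 100 kb, in order along the chromosome, with the distance of each start from the Sik3 start in kb, for adult cerebellum and for E13.5 brains of both sexes. In cerebellum Sik3 is at -0.37 and its neighbours are between -0.14 and 0.01.

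The pathway around the members was followed in 7 lists with 71 genes. In cerebellum 69 could be tested and 11 were called by edgeR (15.9%, where 5.25% of all genes were), 9 lower and 2 higher in Wiz MommeD30/+. The lists were chosen with earlier results of these data known, so this share is a description and not a test. CREB target genes made up 6 of the 11. DESeq2 called 7 list genes, 6 of them among the 11, and 618 of all 15979 genes. The median log2 fold change of the 69 was -0.0026, where that of all genes was -0.0031. The calls rested strongly on single libraries. Without replicate 3 of the Wiz +/+ cerebellums 1 list gene was called. Without replicate 1 or 3 of the Wiz MommeD30/+ cerebellums 3 and 7 were. These counts are over all list genes and can include genes not among the 11. Without replicate 1 of the Wiz MommeD30/+ cerebellums, only Vgf and Sgk1 of the 11 were still called. Over 10 alternative runs (other settings or 1 library left out), the 11 genes were each called in 2 (Atf1) to 9 (Sgk1).

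Among the kinases and phosphatases acting on SIK and CRTC, few genes moved. Stk11, the LKB1 kinase that activates SIK, fell from 105, 101.1 and 102 CPM in Wiz +/+ cerebellum to 92.1, 92.9 and 95.9 CPM in Wiz MommeD30/+ cerebellum, with no overlap. Its log2 fold change was -0.13 (SE 0.032, adjusted p = 0.0252, edgeR), and it was the single called gene of 5 in its list. Stk11 was still called in 6 of 10 alternative runs. Brsk1, a neuronal kinase also activated by LKB1, fell by 0.14 on the log2 scale (SE 0.029, adjusted p = 0.0111, edgeR), 1 of 11 related kinases. Of the 6 protein kinase A subunits none was called by either tool, 1 had an unadjusted p under 0.05, and the smallest p values were those of Prkaca at -0.07 and Prkar1a at -0.05 (log2 fold change). Of 11 calcineurin and 14-3-3 genes none was called by edgeR, 3 had an unadjusted p under 0.05 and DESeq2 called 1. The first 2 were the calcineurin subunits Ppp3ca at 0.08 and Ppp3cc at 0.16. Over all genes tested in cerebellum, 3174 of 15979 had an unadjusted p under 0.05.

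Downstream of SIK, 2 of 7 tested class IIa deacetylase and MEF2 genes were called, both lower. Hdac4 had 71.8, 71.6 and 82.6 CPM in Wiz +/+ and 63.7, 66.5 and 62.5 CPM in Wiz MommeD30/+ cerebellum, a log2 fold change of -0.23 (SE 0.050, adjusted p = 0.0133, edgeR). Hdac5, the closely related deacetylase, fell by 0.11 on the log2 scale (SE 0.028, adjusted p = 0.0312, edgeR), and for both genes the groups did not overlap. Hdac4 was still called in 7 of 10 alternative runs and Hdac5 in 6. Of the CREB family and its CBP/p300 partners, 1 of 5 was called, Atf1, a CREB relative. Atf1 was at 18.2, 17.9 and 17.4 CPM in Wiz +/+ and 20.4, 20.1 and 21.2 CPM in Wiz MommeD30/+. Its log2 fold change was 0.21 (SE 0.055, adjusted p = 0.0389, edgeR). DESeq2 did not call it. Atf1 was called in only 2 of 10 alternative runs, and in none with 1 library left out.

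Of 25 tested CREB target genes, 5 were called lower and 1 was called higher in the mutant cerebellum, and the median log2 fold change was -0.05. Vgf, a precursor of neuropeptides, had 20.9, 23.2 and 25.6 CPM in Wiz +/+ and 11.98, 19.1 and 15.2 CPM in Wiz MommeD30/+ libraries, a log2 fold change of -0.58 (SE 0.111, adjusted p = 0.00671, edgeR). Sgk1, a kinase induced by glucocorticoids, was the higher gene, from 104.3, 78.8 and 72.8 to 132, 113 and 119 CPM, a log2 fold change of 0.51 (SE 0.086, adjusted p = 0.00318, edgeR). Neither gene's groups overlapped. Replicate 1 was the highest Wiz +/+ library for Sgk1 and the lowest for Vgf. Sgk1 was the gene still called without replicate 3 of the Wiz +/+ cerebellums.

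The other 4 called targets had lower fitted levels in the mutants. Nr4a1, an immediate early nuclear receptor, had a log2 fold change of -0.52 (SE 0.115, adjusted p = 0.0141, edgeR), although its groups overlapped at 47.3, 54.0 and 65.7 against 35.8, 48.1 and 32.1 CPM. Bdnf, a neurotrophin, was at -0.28 (SE 0.074, adjusted p = 0.0374, edgeR) and Arc, a synaptic protein, at -0.24 (SE 0.057, adjusted p = 0.0216, edgeR). Scg2, a protein of secretory granules, was at -0.17 (SE 0.045, adjusted p = 0.0365, edgeR). DESeq2 called Bdnf and Scg2 but not Vgf, Sgk1, Nr4a1 or Arc. The 19 targets that were not called lay on both sides of 0, from a log2 fold change of -0.51 for Dusp1, a phosphatase of MAP kinases, to 0.23 for Atf3, a stress-induced transcription factor, with the immediate early gene Egr1 at 0.19.

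Markers of other cells moved with genotype in the same cerebellums. All 5 blood markers were higher in Wiz MommeD30/+ (log2 fold changes of 0.78 to 1.08), and 4 of them were called. Their sum ran from 160 to 249 CPM in Wiz +/+ and from 290 to 528 CPM in Wiz MommeD30/+ libraries, with none at 0. Of 4 endothelial and microglial markers 1 was called, and it was lower (Cldn5, log2 fold change -0.26), with sums of 55.5 to 57.8 against 51.1 to 51.7 CPM. The 3 choroid plexus markers were not called, but 1 Wiz MommeD30/+ library was at 1008 CPM where the other 5 cerebellums were at 1850 to 2167. Of 7 cerebellum markers Gdf10 was called higher (0.12) and Mbp lower (-0.17), and of 4 tested embryonic markers Nes (-0.38) and Sox2 (-0.23) were called lower. Their part in the values of Sik3 and of the listed genes was not tested.

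**Figure D5:**
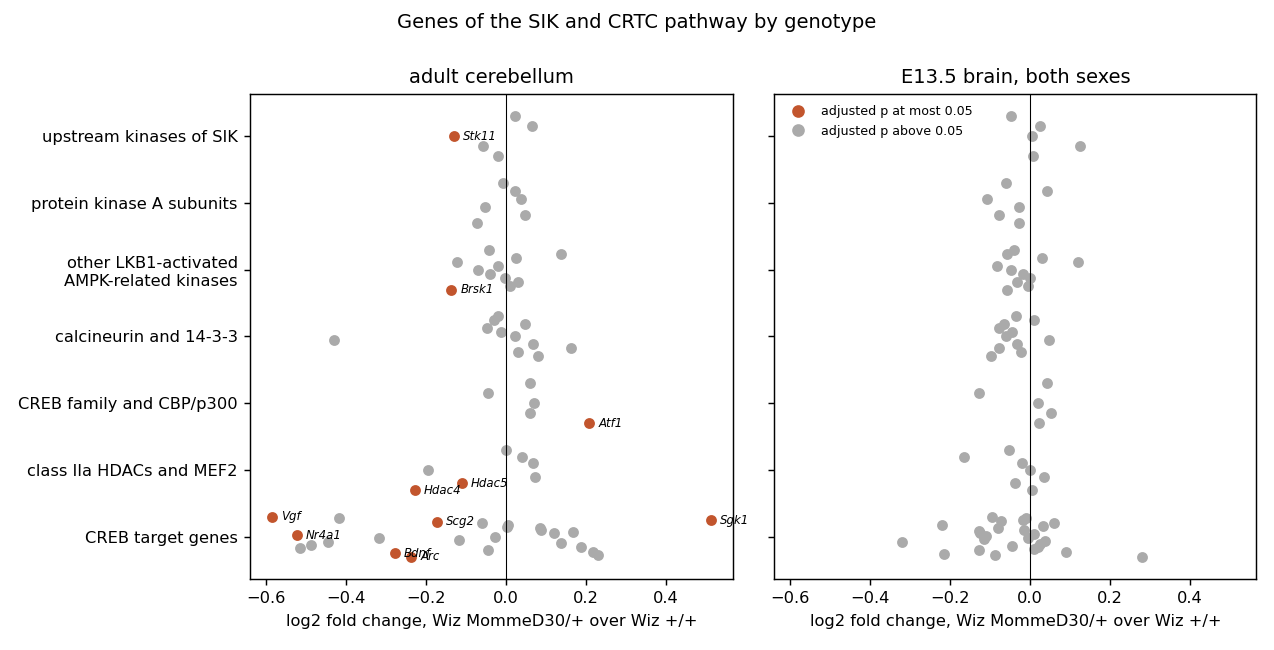
Log2 fold change between genotypes (horizontal axis) of each tested gene in 7 lists around SIK and CRTC, in adult cerebellum (left) and E13.5 brain of both sexes (right); 1 point per gene, orange with a name where the edgeR adjusted p is at most 0.05. In cerebellum 11 genes are orange, from Vgf at -0.58 to Sgk1 at 0.51, and in E13.5 brain none is.

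In the E13.5 brain no list gene was called in males, in females or in both sexes together, of 70 tested, by edgeR or by DESeq2. With both sexes together 10 had an unadjusted p under 0.05, 5 had one in males and 6 in females. Over all genes, 2073 of 17332 had one with both sexes together, 1423 of 16848 in males and 1098 of 17152 in females. The smallest p values of each pooled list were those of Cab39l and Stradb of the LKB1 complex (log2 fold changes 0.12 and -0.05), the protein kinase A subunits Prkar1b and Prkacb (-0.11 and -0.08), the kinases Nuak2 and Nuak1 (0.12 and -0.08), Ppp3ca and the 14-3-3 gene Ywhag (-0.10 and -0.08), Crem and Ep300 (-0.13 and 0.04), and Mef2c and Mef2d (-0.16 and -0.05). Among the CREB targets they were those of Ppargc1a, a metabolic coactivator, at -0.22, and Crem, which stands in both lists. Their adjusted p values lay between 0.225 and 0.645 (edgeR). The genotype by tissue term called no list gene by edgeR or DESeq2, with 16 of 70 at an unadjusted p under 0.05 (1685 of 17337 over all genes). The 11 calls in cerebellum were thus not shown to differ from the embryonic brain.

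Between the tissues 63 of the 70 tested list genes were called (90.0%, where 86.5% of all genes were), 41 higher and 22 lower in cerebellum. The smallest p values among the higher ones were those of Snrk, an LKB1-activated kinase (log2 difference 2.72, SE 0.044), Per1, a clock gene and CREB target (2.505, SE 0.042), and Mef2d, a transcription factor held by class IIa deacetylases (2.02, SE 0.036). Among the lower ones they were those of Prkar2b, a regulatory subunit of protein kinase A (-3.48, SE 0.059), Rgs2, a regulator of G protein signalling (-1.95, SE 0.047), and Btg2, an antiproliferative CREB target (-2.12, SE 0.054). Of the CREB targets 18 of 26 were higher and 6 lower in cerebellum, with a median log2 difference of 1.70 where that of all genes was -0.02. Ppp3ca (2.29, SE 0.047) and Stk11 (0.39, SE 0.039) were higher in cerebellum, and Creb1 (-0.69, SE 0.053) was lower.

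The genes whose levels followed Sik3 most closely were sought among 14781 genes by Pearson correlation over the 16 libraries, after the mean of each group was removed. They were Elk3, an ETS transcription factor (r = 0.899), Nectin2, an adhesion molecule (r = 0.899), Efhd2, a calcium-binding protein (r = 0.898), Lrrc61 (r = 0.890) and Elac2, a nuclease of tRNA processing (r = 0.883). For Sik1 they were Slc38a5, an amino acid transporter (r = 0.940), Spry4, an inhibitor of receptor kinase signalling (r = 0.935), Nfil3, a transcription factor that is also on the CREB target list (r = 0.916), H2-Q7 (r = 0.916), whose reads may be shared with related histocompatibility genes, and Slit1, an axon guidance ligand (r = 0.907). All points share libraries and depth, so these values are a description. The genes were also picked as the highest of 14781, which favours high values. Relative to its level, Sik1 spread most among the 3 Wiz MommeD30/+ cerebellums (9.51 to 13.7 CPM), so its correlations rest mainly on these. Among the other members, Sik3 correlated at -0.28 with Sik1, 0.03 with Sik2, -0.08 with Crtc1, 0.30 with Crtc2 and 0.12 with Crtc3.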

How the data were processed

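RNA-seq was analysed for 16 samples. RNA was made into libraries with the Illumina TruSeq RNA kit and sequenced as single-end reads, and the authors mapped the reads to mm10 with Tophat (version 2.0.11) and counted them over gene exons with htseq-count (version 0.6.1). Each file deposited by the authors lists 1 raw count for every Ensembl gene, not normalized. The htseq-count mode and strand setting are not given in the sources used here. The ChIP-seq samples were not analysed here. Of the 41388 gene identifiers, 40254 were found in GENCODE M21 (GRCm38), which gave symbols, positions and exon lengths. The remaining 1134 took no more than 0.17% of the counts in a library.

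Comparisons were fitted on their own samples over all genes with edgeR 4.0.16 in R 4.3.3 (TMM scaling, filterByExpr with a minimum count of 10, quasi-likelihood test, Benjamini-Hochberg adjustment), and a gene was called at an adjusted p of at most 0.05. The study's fold limits of 0.7 and 1.3 were a second rule. DESeq2 1.42.0, its size factors, no low-count filter, the replicate number as a block and each library left out were alternatives. All 102 listed symbols were matched. Named genes were the 6 members, Wiz, genes within 100 kb of a SIK gene, list genes called in a genotype comparison (otherwise those with the smallest p), in the tissue comparison the 3 list genes with the smallest p each way, and the 5 genes most correlated with Sik3 and with Sik1; a few others are named beside them. The members, lists and tests were chosen with earlier results of these data known. Pairs of replicates differed by more than counting error (chi-square 2.11 to 11.2 times its degrees of freedom). In counts simulated for the cerebellum comparison (200 of 15847 genes changed), the test recovered 100% of genes changed by 1 on the log2 scale and 85% of those changed by 0.5. For the female brains (17000 genes) it recovered 89% and 54%, and 14.9% of its calls were false. The changed genes were drawn only from those with higher mean counts. Changes smaller than 0.5 were not simulated, so recovery is not known for them or for genes with low counts. Other calculations used Python 3.11.15 with pandas 2.3.3.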

Additional observations from a re-analysis of the deposited data

How the results depend on the processing

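Sik3 in cerebellum kept its direction under every alternative run, between -0.41 and -0.33 on the log2 scale. These runs reuse the cerebellum values that chose the family, so they are no separate test. In the cerebellum genotype comparison no member passed with the study's fold limits (0 of 6, against 133 of all genes). The members of the E13.5 comparisons crossed no threshold under any alternative. Counts over all genes moved more. In cerebellum 1268 genes were called without the low-count filter, and 187 to 891 when 1 library was left out (187 without Wiz +/+ 3, 280 without Wiz MommeD30/+ 1, 498 without Wiz +/+ 1). Of the list genes, DESeq2 called 7, the fold limits left 3, and leaving out 1 library gave 1 to 11. The genes called with 1 library left out were not always those called with all, and Atf1 was lost in each such run. In male brain the count was 60 with DESeq2, 369 without the filter (1 of them a list gene) and 20 to 157 with 1 library left out (20 without Wiz +/+ 1, 157 without Wiz MommeD30/+ 3); in female brain it was 42 with DESeq2 and 0 to 362 with 1 library left out (362 without Wiz +/+ 1, 40 without Wiz +/+ 2 and 0 without either mutant); with both sexes it was 183, 217 and 49 to 105 (49 without male Wiz +/+ 1). The genotype by sex term gave 1 gene with DESeq2 and 1 without the filter, and the genotype by tissue term 121 and 416 (8 of them list genes).

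Same-numbered samples did not deviate together: residual correlations were -0.179 to -0.042 in male brain, -0.054 in female brain, -0.122 to -0.004 in cerebellum and -0.016 to 0.021 between tissues. Different-numbered pairs ran from -0.026 to 0.151 in male brain and from -0.116 to 0.174 in cerebellum. In female brain, with 2 libraries per group, the different-numbered value is fixed as the mirror image of the same-numbered one (0.054). With the replicate block, 3 genes were called in female brain, 53 in both sexes and 13 on the genotype by tissue term, and no other count moved by more than 1.5 times.

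With 1 library left out, E13.5 log2 fold changes near 0 changed sign: in males Sik2 ran from -0.145 to 0.0214, Sik3 from -0.0072 to 0.0606 and Crtc2 from -0.037 to 0.0368; in females Sik1 from -0.104 to 0.0478, Sik3 from -0.0158 to 0.00505, Crtc2 from -0.0281 to 0.00772 and Crtc3 from -0.152 to 0.0196; over both sexes Sik2 from -0.0354 to 0.0606, Sik3 from -0.00705 to 0.0312 and Crtc2 from -0.0224 to 0.0141. The genotype by sex term of Crtc2 was 0.0029 without the filter and 0.00083 with the block. The causes were not tested. Of the 5 genes most like Sik3 or Sik1, 1 each was shared with the 5 by Spearman correlation.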
